A study of Rattus norvegicus with 100 samples.

Results

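Expression of 7 genes of the cholesterol pathway was followed in primary rat hepatocytes exposed to GW7647, a synthetic agonist of the nuclear receptor PPARα: Hmgcs1, Idi1, Fdft1, Sqle, Cyp51, Insig1 and Srebf2. They were taken as a list by name. Each gene was read from the probe set that carried its symbol alone and had the highest mean over all arrays. No probe set carried the symbol of Hmgcs1 alone, so 6 of the 7 genes could be described, of 13439 genes with a probe set. All 6 passed the filter on low values (log2 intensity above 5 in at least 3 arrays), as did 8843 genes in all. The 6 genes cover synthesis and its control, and no receptor for uptake of cholesterol is among them.

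Hepatocytes of 4 rats (Rs627, Rs628, Rs631 and Rs632) were cultured between collagen IV and Geltrex and exposed to GW7647 at 0.001, 0.01, 0.1, 1 or 10 µM, or to none (0 µM), for 2, 6, 12, 24 or 72 h. The 100 arrays fall into 30 groups of 2 to 4 arrays, with 1 array per rat in a group. At 0 µM there were 3, 4, 3, 3 and 4 arrays at the 5 times. No strain, age or genotype of the rats is named in the labels, nor whether the cultures at 0 µM received a solvent.

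Liver cells make cholesterol from acetyl-CoA through mevalonate, isoprenoid units, squalene and lanosterol. Transcription of most enzymes of this route is driven by SREBP-2, the product of Srebf2, which stays in the endoplasmic reticulum bound to SCAP while sterols are plentiful and is cut and sent to the nucleus when they run low. The Insig proteins hold SCAP in place, and Insig1 is itself a gene that SREBPs switch on. GW7647 acts on PPARα, a receptor that switches on genes for burning fatty acids.

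RefSeq promoter entries were found for 5 of the 7 genes (Hmgcs1, Idi1, Cyp51, Insig1 and Srebf2). The 250 bases before the start of 3 of them are shown, because Insig1 and Idi1 moved in opposite directions in the arrays and Srebf2 encodes the factor of the pathway. They are the GRCr8 regions chr4:8057770-8058019 for Insig1 (minus strand), chr17:66547525-66547774 for Idi1 (minus strand) and chr7:115543057-115543306 for Srebf2 (plus strand). Capitals mark CCAAT (written ATTGG where it lies on the opposite strand), CACGTG and ATCACCCCA.
Insig1: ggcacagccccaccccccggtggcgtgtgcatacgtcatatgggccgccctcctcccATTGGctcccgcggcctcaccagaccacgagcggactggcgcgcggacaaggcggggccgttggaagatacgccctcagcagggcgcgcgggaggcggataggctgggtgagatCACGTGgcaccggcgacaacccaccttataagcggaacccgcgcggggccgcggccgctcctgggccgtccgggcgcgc
Idi1: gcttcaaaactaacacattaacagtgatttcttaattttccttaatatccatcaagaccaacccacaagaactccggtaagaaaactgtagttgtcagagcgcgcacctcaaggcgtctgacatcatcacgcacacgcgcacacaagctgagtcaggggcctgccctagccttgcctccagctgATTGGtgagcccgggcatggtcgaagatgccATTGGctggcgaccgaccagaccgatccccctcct
Srebf2: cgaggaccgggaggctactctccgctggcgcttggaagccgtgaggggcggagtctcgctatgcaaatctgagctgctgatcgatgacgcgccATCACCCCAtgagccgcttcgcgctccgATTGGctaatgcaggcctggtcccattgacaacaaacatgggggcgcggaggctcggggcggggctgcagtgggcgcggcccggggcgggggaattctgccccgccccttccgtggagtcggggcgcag

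CCAAT, the letters that NF-Y binds, was present on either strand in 4 of the 5 promoters and in 34.0% of 33469 rat promoters read over the same 250 bases. Both matches of Idi1 lay close to the start, at bases -66 to -62 and -35 to -31. The sterol-response letters ATCACCCCA were found in Srebf2 alone among the 5, from base -157 to -149, and in 0.212% of all promoters. The related letters TCACNCCAC were in none of the 5 and in 0.974% of all promoters. CACGTG, an E-box, was found in Insig1 alone, from base -79 to -74, and in 5.59% of all promoters. GGGCGG, a GC box not marked in the lines above, was in 4 of the 5 and in 30.5% of all. A direct repeat of AGGTCA with 1 base between the copies, the arrangement PPARs bind, was in none of the 5 and in 0.0508% of all. A match is a description of letters in this window only.

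Of 6 measured hepatocyte markers 5 (Alb, Apoa1, Ttr, Serpina1 and Cps1) lay above 11 in all 100 arrays, albumin (Alb) between 13.6 and 13.8, while Cyp2e1 exceeded 5 in 47 arrays. None of the 4 endothelial markers exceeded 5 in any array. Of 4 macrophage markers 1 (Cd68) was above the floor in 24 arrays, and of 5 stellate cell markers Col3a1 and Acta2 were in 99 and 97. Of 4 bile duct markers Sox9 never exceeded 5, Krt19 and Krt7 did in 36 and 23 arrays, and Epcam lay between 9.32 and 11.3 in all arrays. Acta2 fell at 1 µM and 72 h by 0.55 on the log2 scale (limma, adjusted p = 0.00248), where members also moved, and the change of Col3a1 was 0.46 (adjusted p = 0.516); their part in the members' changes was not tested. The log2 of the summed level of the 5 stellate markers was 7.17 to 7.61 at 0 µM and 6.96 to 8.11 at 1 µM at that time, and that of the 4 bile duct markers 9.81 to 11.3 and 9.60 to 10.3. That of the 6 measured hepatocyte markers was 15.11 to 15.23 at 0 µM, 14.83 to 15.01 at 1 µM and 14.75 to 14.996 at 10 µM, and it is carried by the brightest of them. One by one, Cyp2e1 rose by 2.94 at 1 µM and by 3.91 at 10 µM, Serpina1 fell by 0.88 and 1.14 and Ttr by 0.28 and 0.36, Apoa1 passed only at 10 µM (-0.80), and Alb and Cps1 passed at neither. These markers moved in both directions at the time when Idi1 and Cyp51 fell; their part in those falls was not tested. In RNA of a whole culture, fewer cells of a type and less RNA per cell cannot be told apart. The 75th percentile of an array, taken as its overall signal, ranged from 6.42 to 7.27 and lay under 6.6 in 5 arrays. Arrays of one rat mostly resembled each other. The 5 arrays nearest to an array of another rat were all of Rs627 or Rs628, and 2 of them were at 0 µM and 12 h. There the array labelled Rs627 had a median correlation of 0.77 with arrays of Rs628 and -0.02 with arrays of Rs627, over deviations of all genes tested from their group means. The array labelled Rs628 had 0.51 with Rs627 and -0.22 with Rs628. Both are arrays of the same group, so the mean of that group does not depend on which rat is which.

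Insig1 was the member that rose. Averaged over the 5 times, it was 1.27-fold higher at 0.1 µM, 1.39-fold at 1 µM and 1.54-fold at 10 µM than at 0 µM. The log2 changes were 0.35 ± 0.075 (SE), 0.47 ± 0.07 and 0.62 ± 0.073, with adjusted p of 0.000407, 7.88e-08 and 6.7e-11 (limma, 2 to 4 arrays per group, Benjamini-Hochberg over all genes tested). At 0.001 and 0.01 µM the changes were 0.12 and 0.12, with 95% intervals from -0.02 to 0.27 and from -0.03 to 0.26, and did not pass. The fitted change was above 0 in 24 of the 25 combinations of concentration and time.

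At 6 h the Insig1 arrays at 0 µM read 11.03 in Rs627, 10.99 in Rs628, 11.29 in Rs631 and 10.89 in Rs632. At 1 µM they read 11.59, 11.50, 11.89 and 11.40 in the same order. Every rat was higher with GW7647, by 0.51 to 0.59, and the groups did not overlap, as for 8.88% of all genes tested. The change was 0.54 ± 0.15 (SE; limma, adjusted p = 0.0252). At 10 µM the 3 arrays lay between 11.88 and 12.00, up to the highest value of this gene in the series, with a change of 0.89 ± 0.16 (limma, adjusted p = 7.01e-05).

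At 72 h Insig1 read 11.05, 11.005, 11.24 and 10.85 at 0 µM and 11.95, 11.71, 11.65 and 11.27 at 1 µM in Rs627, Rs628, Rs631 and Rs632. The groups again did not overlap, as for 28.8% of all genes tested, and all 4 rats were higher. The change was 0.61 ± 0.15 (limma, adjusted p = 0.000904). At 12 and 24 h the changes at 1 µM were 0.54 and 0.46 (limma, adjusted p = 0.0264 and 0.0236). At 2 h the change at 1 µM was 0.20 ± 0.17 and did not pass, with adjusted p = 1. At 10 µM and 2 h it was 0.43 ± 0.16 (limma, adjusted p = 0.34), and 0.0047 with the rat as a block. Insig1 at 0.1 µM passed in no single time without the block and passed with it at 6, 24 and 72 h, where the blocked changes were 0.52, 0.39 and 0.36 (limma, adjusted p = 0.00019, 0.0077 and 0.0041).

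The averaged rises of Insig1 at 0.1, 1 and 10 µM passed in all 17 alternatives. With the rat as a block, the rises at 1 and 10 µM also passed at each of 6, 12, 24 and 72 h. The fits that left out 1 rat had fewer arrays and did not pair the others by rat. The rises at single times were less firm: leaving out 1 rat ended the call at 1 µM and 6 h for 3 of the 4 rats (Rs627, Rs628 or Rs631, adjusted p from 0.145 to 0.261) with the size kept between 0.53 and 0.55, at 12 h for the same 3 rats (adjusted p = 0.334, 0.0671 and 0.206), at 24 h for Rs627 or Rs632 (0.108 and 0.0625) and at 72 h for Rs627 (0.51, adjusted p = 0.0538). At 10 µM the rise passed without any 1 rat at 6 h, and was lost at 12 h without Rs627 or Rs631 (adjusted p = 0.139 and 0.109), at 24 h without Rs627 (0.064) and at 72 h without Rs628 (0.0849). Without the arrays of low signal the rises at 24 h were 0.49 and 0.51 (adjusted p = 0.0773 and 0.0577). Fitted to the arrays compared alone, the rises at 6, 12 and 24 h passed at neither concentration, and those at 72 h passed at both. Without the 2 arrays at 12 h whose rat is in doubt, the rise at that time was 0.54 with adjusted p = 0.43, on 1 remaining array at 0 µM whose spread is taken from the other groups.

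**Figure D1:**
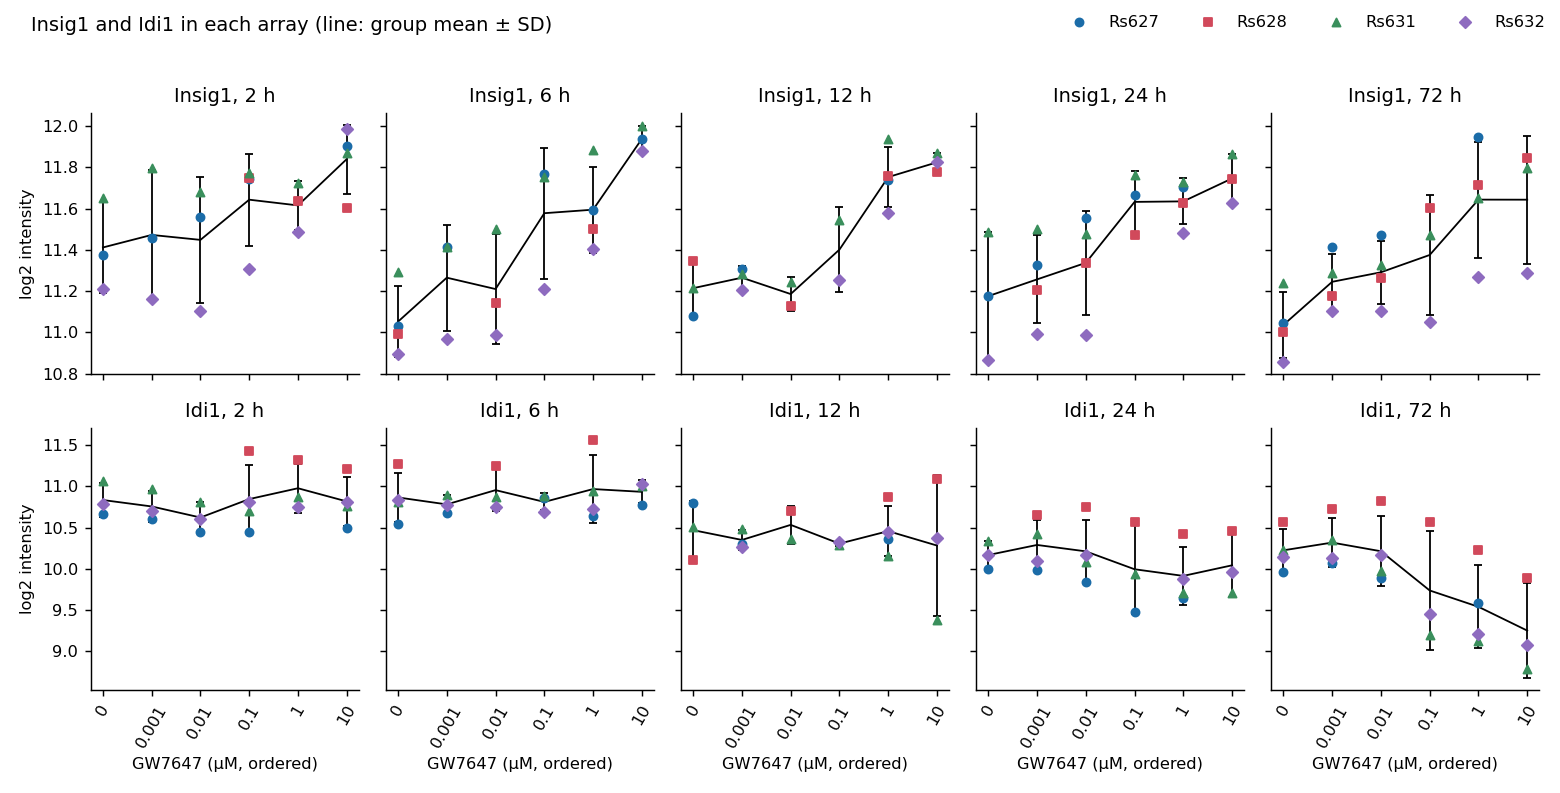
Log2 intensity of Insig1 (upper row) and Idi1 (lower row) in each array against the concentration of GW7647 in µM, in order and not to scale, at the 5 times; symbols are the 4 rats, and lines join group means with bars of 1 SD. Insig1 at 10 µM and 6 h lies above all arrays at 0 µM, while Idi1 falls with concentration at 72 h and Rs628 stays highest.

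Against the background of all genes, the members' counts were modest. Averaged over times, 0, 0, 1, 1 and 2 of the 6 members passed at 0.001, 0.01, 0.1, 1 and 10 µM, where 0%, 0.69%, 14.3%, 35.4% and 39.4% of all genes tested passed. With limma and no adjustment, p was under 0.05 for 0, 0, 3, 2 and 2 of the 6. With the rat as a block, 2, 4 and 4 members passed at 0.1, 1 and 10 µM, where 28.4%, 50% and 53.8% of all genes did. They were Sqle and Insig1 at 0.1 µM, and Idi1, Sqle, Insig1 and Srebf2 at both 1 and 10 µM. At 1 µM, 0, 1, 1, 1 and 2 members passed at 2, 6, 12, 24 and 72 h, beside 0.373%, 2.04%, 5.41%, 29.6% and 26.8% of all genes. The block raised the counts at 24 and 72 h to 4 and 3, beside 49.8% and 40.3% of all genes; the added members at 24 h were Idi1 (-0.42), Sqle (-0.29) and Srebf2 (-0.56), none of which passed once the arrays of low signal were left out too. At 10 µM the counts were 0, 1, 1, 1 and 3, beside 1.02%, 4.3%, 7.95%, 17.1% and 28%. The member that passed at 6, 12 and 24 h was Insig1. At 0.1 µM no member passed at any single time, where 0.192%, 0.916%, 1.55%, 4.32% and 8.82% of genes did; at 0.01 µM the shares were 0.0113%, 0%, 0.0339%, 0.136% and 0.418%, and at 0.001 µM no gene passed. At those 2 lowest concentrations no member had an unadjusted p under 0.05 either.

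Between neighbouring concentrations, averaged over times, no member passed. The shares of all genes that passed were 0.645% from 0.001 to 0.01 µM, 4.08% from 0.01 to 0.1 µM, 1.06% from 0.1 to 1 µM and 0% from 1 to 10 µM. Insig1 rose by 0.24 from 0.01 to 0.1 µM with the rat as a block (limma, adjusted p = 0.00019; 0.23 and 0.075 without it), and Sqle fell by 0.21 in that fit (adjusted p = 0.00187). From 1 to 10 µM the change of Insig1 was 0.15, with a 95% interval from 0.01 to 0.29 and adjusted p = 1.

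**Figure D2:**
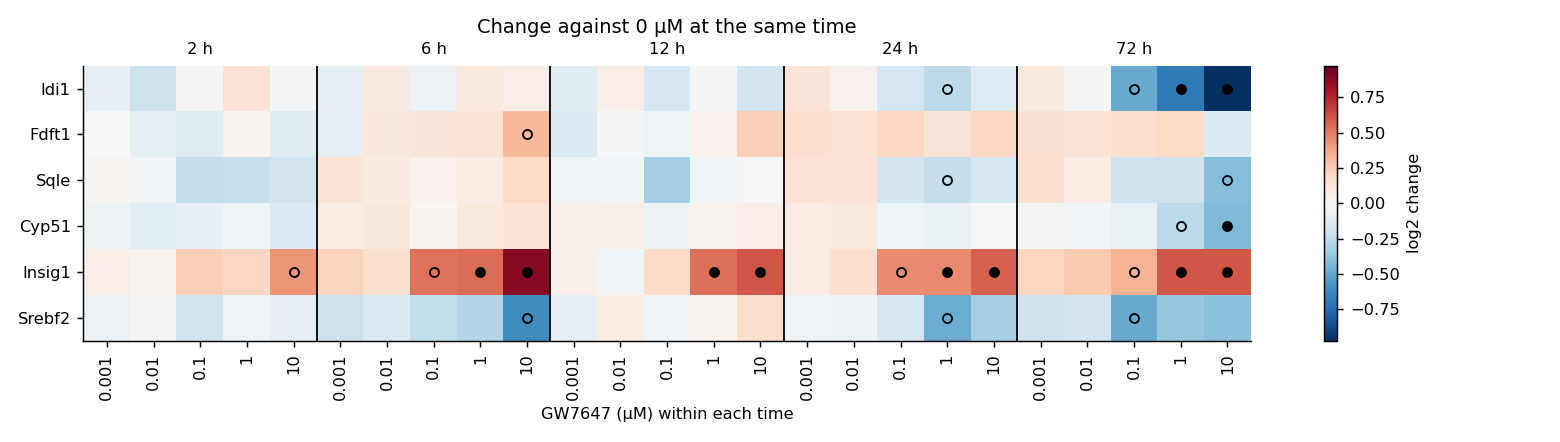
Log2 change of each member against 0 µM at the same time, for 5 concentrations at each of 5 times; a filled dot marks an adjusted p under 0.05, and an open one a change that passed only with the rat as a block. Insig1 is the row with filled dots for a rise from 6 h on, with an open one at 2 h and 10 µM, and Idi1, Sqle and Cyp51 are lower at 72 h and 10 µM.

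Idi1, the isomerase that makes the reactive isoprenoid unit, fell at 72 h. At 0 µM it read 9.96, 10.57, 10.23 and 10.14 in Rs627, Rs628, Rs631 and Rs632, and at 1 µM 9.59, 10.23, 9.13 and 9.22. All 4 rats were lower, by 0.34 to 1.10, although the groups overlapped because Rs628 was high in both. The change was -0.68 ± 0.26 (SE; limma, adjusted p = 0.0417), a 1.61-fold lower level.

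At 10 µM and 72 h Idi1 read 9.89 in Rs628, 8.79 in Rs631 and 9.08 in Rs632. No array overlapped those at 0 µM, as for 36.9% of all genes tested. The change was -0.97 ± 0.28 (limma, adjusted p = 0.00545), or 1.96-fold lower. At 0.1 µM it was -0.49 (limma, adjusted p = 0.28; blocked by rat, -0.57 and 0.0088). At 2 and 6 h no change of Idi1 passed; at 10 µM and 6 h it was higher in all 3 rats by 0.19 to 0.23, with a group mean of 10.93 against 10.87. The falls of Idi1 at 72 h passed in 12 of the 17 alternatives at 1 µM and in 15 at 10 µM, the fit blocked by rat among them. The fall at 1 µM did not pass without Rs627, Rs631 or Rs632 (limma, adjusted p from 0.0812 to 0.278), without the filter (0.0574) or on the arrays compared alone (0.0742). That at 10 µM did not pass without Rs631 or Rs632 (-0.74 and -0.91, limma, adjusted p = 0.139 and 0.129).

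Cyp51, lanosterol demethylase, fell at 10 µM and 72 h. It read 10.67, 10.94, 10.89 and 10.74 at 0 µM in Rs627, Rs628, Rs631 and Rs632, against 10.65, 10.33 and 10.16 in Rs628, Rs631 and Rs632 at 10 µM. The groups did not overlap, as for 36.9% of all genes tested, and 3 of 3 rats were lower. The change was -0.43 ± 0.16 (limma, adjusted p = 0.0379). It passed in 10 of the 17 alternatives, the fit blocked by rat among them. It did not pass with the mean of both Cyp51 probe sets (-0.33, limma, adjusted p = 0.12) or with median centring (-0.40, adjusted p = 0.0699). Nor did it pass without the arrays at repeated plate positions (-0.32, limma, adjusted p = 0.21) or without a filter (adjusted p = 0.0522). The same held on the arrays compared alone (limma, adjusted p = 0.0629) and without Rs631 or Rs632 (adjusted p = 0.188 and 0.339). At 1 µM and 72 h the change was -0.26 (limma, adjusted p = 0.22; 0.046 blocked by rat).

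Sqle, squalene epoxidase, was lower at the same point without passing. At 72 h it read 10.01, 10.15, 10.08 and 10.24 at 0 µM and, in Rs628, Rs631 and Rs632, 10.00, 9.41 and 9.70 at 10 µM. The groups did not overlap. The change was -0.42 ± 0.17 (limma, adjusted p = 0.0556) and passed in the fit blocked by rat (-0.41, adjusted p = 0.00094). With the block Sqle was also lower at 0.1, 1 and 10 µM averaged over times, by 0.17, 0.15 and 0.12 on the log2 scale; the last did not pass without the 2 doubted arrays at 12 h (adjusted p = 0.104). At 72 h and 10 µM 4 of the 6 members had groups that did not overlap, as had 36.9% of all genes tested. At 2 h Sqle averaged 10.31, 10.32 and 10.36 at 0.1, 1 and 10 µM against 10.54 at 0 µM. It was lower in every rat with both arrays. None of these groups overlapped that at 0 µM, as for 4.7%, 8.06% and 7.19% of all genes tested. Sqle passed at none of them, without or with the block. At 6 h and 10 µM it was higher in all 3 rats.

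Fdft1, squalene synthase, passed in no comparison without the block. Its change averaged over times was 0.11 ± 0.08 at 1 µM and 0.10 ± 0.083 at 10 µM (95% intervals from -0.05 to 0.27 and from -0.06 to 0.27). At 10 µM it was 0.32 ± 0.18 at 6 h (limma, adjusted p = 0.27; blocked by rat, 0.35 and 0.043, and 0.135 without the arrays of low signal) and -0.13 ± 0.18 at 72 h. Its group means ranged over 0.63 on the log2 scale, the narrowest span of the 6 members, and those of Idi1 over 1.72.

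Srebf2 encodes SREBP-2, and its level at 10 µM averaged over times was lower by -0.25 ± 0.1 (limma, adjusted p = 0.0414). At 1 µM the change was -0.23 (limma, adjusted p = 0.061; -0.25 and 0.0076 with the rat as a block). Within groups, the level of Srebf2 followed the overall signal of the arrays. The part of that signal in these changes was not tested. In 4 of the 5 arrays of low signal Srebf2 was the lowest of its group, with 6.19 against 7.23 and 7.30 in the other arrays at 10 µM and 6 h. Over the 100 arrays the deviations of Srebf2 and of the 75th percentile from their group means had r = 0.77, against 0.34 for Idi1 and -0.10 for Insig1, given as a description since the arrays share rats. Without the 5 arrays of low signal the averaged change of Srebf2 was -0.12 (limma, adjusted p = 0.206), and -0.13 with the rat as a block (0.0623). It was also lost without Rs627 (-0.14), Rs631 or Rs632 (adjusted p = 0.436, 0.0746 and 0.146), without the 2 doubted arrays at 12 h (0.0853), without the filter (0.0545), without repeated plate positions (-0.10) and with the mean of both probe sets (-0.10), the other of which averaged 2.87 and never exceeded 3.41. At 72 h no array was of low signal, but the mean 75th percentile was 6.98 at 0 µM, 6.90 at 1 µM and 6.94 at 10 µM. Its part in the changes at that time was not tested. At 72 h Srebf2 read 7.24, 7.45, 7.13 and 7.15 at 0 µM and 6.91, 7.34, 6.53 and 6.70 at 1 µM. All 4 rats were lower by 0.10 to 0.60 there. The changes at that time were -0.37 at 1 µM and -0.40 at 10 µM and did not pass (limma, adjusted p = 0.182 and 0.179); they passed once the arrays of low signal at other times were left out of the fit (adjusted p = 0.0454 and 0.0435; 0.00461 and 0.00553 once blocked by rat as well).

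**Figure D3:**
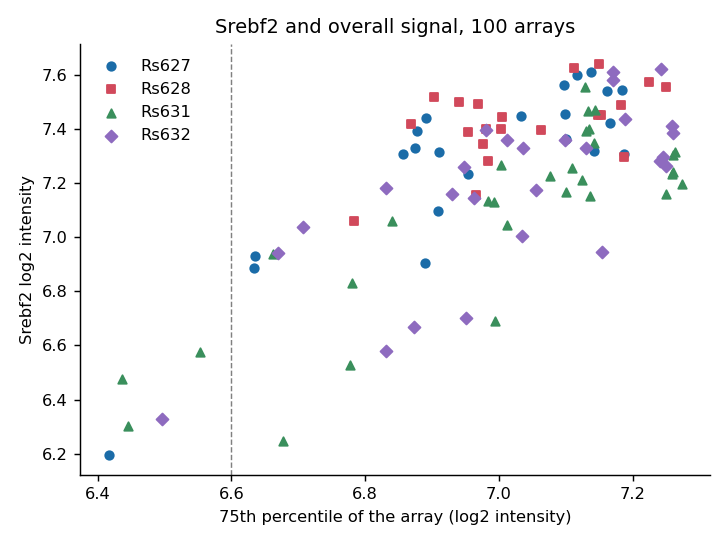
Log2 intensity of Srebf2 against the 75th percentile of each of the 100 arrays, by rat; the dashed line marks 6.6. The 5 arrays left of the line have Srebf2 values between 6.19 and 6.58.

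Whether the change at 72 h differs from that at 6 h was tested directly. No member passed at 1 µM or 10 µM, where 5.35% and 9.61% of all genes did. With limma and no adjustment, 1 and 3 of the 6 members had p under 0.05, all lower at 72 h. The difference for Idi1 was -0.79 ± 0.37 at 1 µM (adjusted p = 0.26) and -1.04 ± 0.40 at 10 µM (adjusted p = 0.085). With the rat as a block it passed for Idi1 at both (-0.79 and -1.29, limma, adjusted p = 0.0076 and 2.6e-05) and, at 10 µM, for Fdft1 (-0.51), Sqle (-0.65) and Cyp51 (-0.69), which makes 1 and 4 of the 6 members beside 16.1% and 24% of all genes. Insig1 was not among them.

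Without GW7647, all 6 members had a lower mean at 72 h than at 2 h, and none passed, where 3.4% of all genes did. Idi1 went from 10.66, 11.06 and 10.78 (Rs627, Rs631 and Rs632) at 2 h to 9.96, 10.23 and 10.14 in the same rats at 72 h. The fitted changes were -0.61 ± 0.28 for Idi1, -0.42 ± 0.17 for Sqle and -0.38 ± 0.16 for Insig1, each with unadjusted p under 0.05, and -0.25 to -0.26 for Fdft1, Cyp51 and Srebf2. The median change of all genes tested was -0.17. With the rat as a block Idi1, Sqle and Insig1 passed (limma, adjusted p = 0.0014, 0.0014 and 0.0086), where 13% of all genes did.

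Sqle at 2 h and 0 µM lay within 10.52 to 10.56 in 3 rats, and at 72 h the 4 arrays lay below that, at 10.24 or less. Between neighbouring times at 0 µM no member passed, and 1.5%, 0.724%, 0.859% and 0% of all genes did from 2 to 6, 6 to 12, 12 to 24 and 24 to 72 h. Between 2 and 6 h Insig1 changed by -0.36 and Sqle by -0.28 (limma, adjusted p = 0.32 and 0.54), both past the threshold with the block (adjusted p = 0.023 and 0.048).

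**Figure D4:**
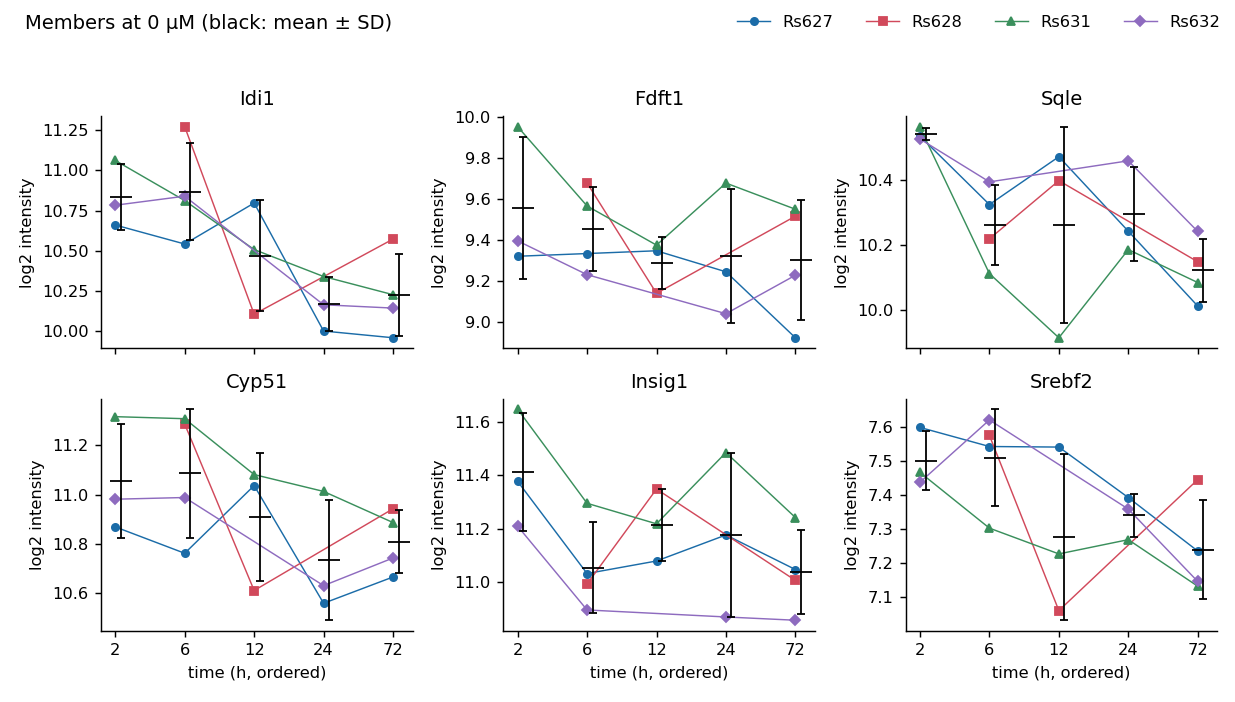
Log2 intensity of the 6 members at 0 µM against time in h, in order and not to scale; coloured lines follow the 4 rats, and black marks are group means with 1 SD. Idi1 is lower at 24 and 72 h than at 2 and 6 h, and at 12 h the arrays labelled Rs627 and Rs628 change places for Idi1.

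The rats themselves differed in the members. Rs628 had the highest Idi1 in 20 of its 21 groups, by a mean deviation of 0.45 ± 0.25 (SD over 21 arrays) from the group mean, the exception being the array at 0 µM and 12 h. Rs632 had the lowest Insig1 in 25 of 27 groups, and Rs631 the lowest Sqle in 27 of 30 and the highest Fdft1 in 21 of 30. The order of the rats differed between members. Without the 0 µM arrays in doubt at 12 h, the blocked fit called 4 members instead of 2 at 0.1 µM averaged over times and 4 instead of 3 for 72 against 2 h.

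Of 14 other enzymes of the pathway that were tested, at 72 h 2 rose and 1 fell at 1 µM, and 2 rose and 3 fell at 10 µM, with medians of 0.08 and -0.02 beside -0.06 and -0.04 for all genes. These are 3 and 5 of 14, where 26.8% and 28% of all genes passed (11.3% higher and 15.5% lower at 1 µM, 12.5% and 15.6% at 10 µM), so the counts are near the background. With the rat as a block 5 rose and 1 fell at 1 µM, where 40.3% of all genes passed. Msmo1, the sterol methyl oxidase that acts after Cyp51, fell by 0.55 at 1 µM and by 0.81 at 10 µM (limma, adjusted p = 0.00533 and 0.000108). Ebp and Tm7sf2, which also act after Cyp51, fell at 10 µM with log2 changes of -0.49 and -0.88 (limma, adjusted p = 0.0246 and 0.0332). Sc5d, the sterol desaturase, rose at both concentrations by 0.33 and 0.34, Pmvk, phosphomevalonate kinase, at 1 µM by 0.51, and Hsd17b7, a sterol ketoreductase, at 10 µM by 0.74. At 6 h and 1 µM none of the 14 passed with limma, without or with the rat as a block. Averaged over times, 3 of the 14 rose and 0 fell at 1 µM, and 4 rose and 0 fell at 10 µM. Of all genes 11.7% rose at either concentration, and 23.6% and 27.7% fell. With the rat as a block 5 rose and 0 fell at 1 µM, and 5 rose and 2 fell at 10 µM. In that fit 50% and 53.8% of all genes passed.

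**Figure D5:**
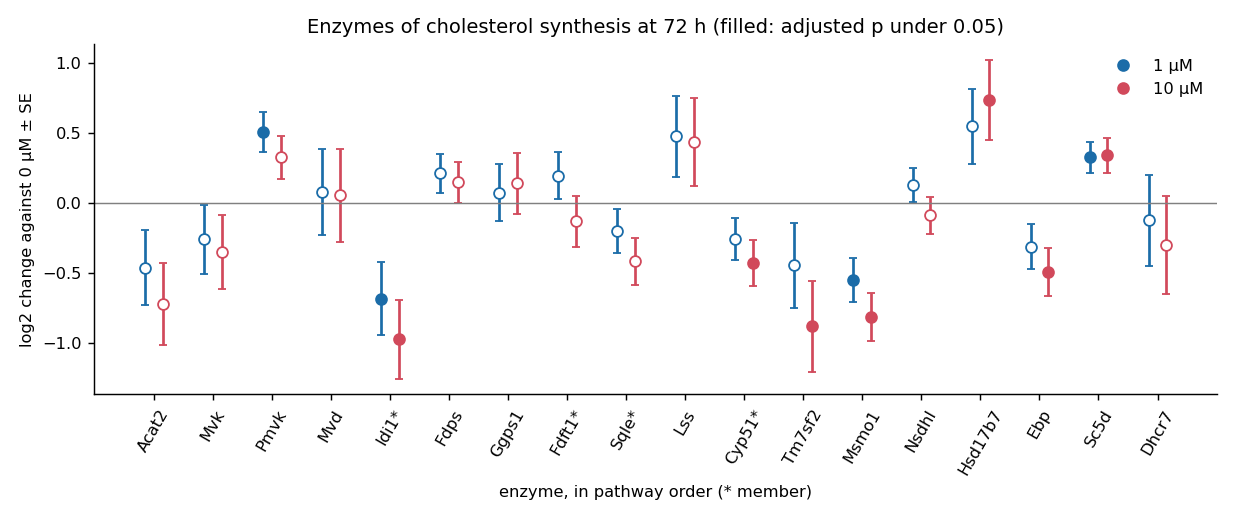
Log2 change ± SE against 0 µM at 72 h for 18 enzymes of cholesterol synthesis in pathway order, members with a star, at 1 µM (blue) and 10 µM (red); filled points have an adjusted p under 0.05. Idi1 and Msmo1 are lower at both concentrations, Cyp51, Tm7sf2 and Ebp at 10 µM, and Sc5d is higher at both.

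Among 8 measured genes of SREBP processing and control, 3 rose at 1 µM and 72 h, where 11.3% of all genes rose and 15.5% fell. Srebf1, which encodes the SREBP that drives fatty acid synthesis, rose by 1.06 at 1 µM and by 1.22 at 10 µM (limma, adjusted p = 4.29e-07 and 7.62e-08), and already by 0.62 at 6 h and 1 µM (adjusted p = 0.0214). Insig2, the other Insig gene, rose by 0.49 at 1 µM, and Rnf139, an ER ubiquitin ligase, by 0.28. Scap, which carries SREBPs, was among those that did not pass. Of 8 genes of fatty acid synthesis 4 rose at 1 µM and 72 h, Elovl6 by 2.01 and Scd by 0.77, while the ATP-citrate lyase Acly, which makes the acetyl-CoA both pathways use, fell by 0.69 at 10 µM. Of 11 genes of sterol export, trafficking and LXR, 4 rose and 1 fell: Nr1h3 (LXRα) rose by 0.77 and Abcg1, a sterol exporter, by 1.64, and Npc2, a lysosomal sterol carrier, fell by 0.43. Abcg1 averaged 4.99 over all arrays, close to the filter value of 5, which limits how far the size of its rise can be read. All 4 measured PPARα targets rose at 1 µM and 72 h, Ehhadh by 4.82.

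Over the 30 group means the members did not form 1 pattern. Idi1 and Cyp51 followed each other (r = 0.94), Idi1 and Sqle less (r = 0.79), and Insig1 had r between -0.24 and 0.43 with the others. These are descriptions over group means that share rats. The gene most like the mean of the 6 standardised profiles was Msmo1 (r = 0.92), followed by Ceacam1 (0.90), Hspa1a (0.89), Col5a1 (0.87) and Acat2 (0.87).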

How the data were processed

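RNA of 100 cultures was hybridised to Affymetrix rat arrays. The table the authors deposited gives a log2 intensity for every probe set in every culture; per the submitters' processing notes GCRMA and Partek were used, in unstated roles, and the genome build is not given in the sources used here. Of 31139 probe sets, 19069 had 1 gene symbol in the platform annotation, 572 several and 11498 none, which gave 13439 genes by highest mean. Levels of different probe sets are not comparable between genes, and the number of arrays limits the precision.

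A linear model with 30 group means and no block was fitted to all arrays with limma 3.58.1 in R 4.3.3 (70 residual degrees of freedom, two-sided, Benjamini-Hochberg over 8843 genes, threshold 0.05). It was also run on simulated data with noise drawn independently for each array. Those data held no differences between rats, so that run cannot show how shared rats affect the calls. The members, the gene lists and the rule for naming genes (members, list genes that passed, and the 5 genes closest to the members' mean profile) were chosen with earlier results of these data known. Neighbouring concentrations were compared in addition. Genes of the pathway outside the lists are not reported here.

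The rat numbers in the labels pair cultures by animal. Between arrays of different groups, deviations from group means correlated with a median of 0.62 within rats (lowest rat 0.52) and -0.22 between rats, and for 95 of 100 arrays the one most like it in another group came from its own rat. A fit with the rats as blocks was run beside it. Where it changes a call, it is given by gene or as a count of members. No 2 arrays were identical (highest correlation 0.998). The other alternatives were each rat left out, no filter or a filter at log2 7, quantile normalization, median centring, arrays of low signal or at repeated plate positions left out (10 of 87 positions, 23 arrays), the mean of all probe sets, an intensity trend with a robust prior, and the arrays compared alone. Promoters are RefSeq's (GRCr8). Figures used Python 3.11.15 and matplotlib 3.10.9.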

Additional observations from a re-analysis of the deposited data

Results flagged for a closer look

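In 6 of 72 combinations of a member and a group of 4 arrays, 1 array lay far from the other 3 by Dixon's criterion, which chance meets in about 1 in 20. Srebf2 read 6.58 in Rs631 at 0.1 µM and 2 h, an array of low overall signal, against 7.45 to 7.63 in the others, and 7.39 in Rs628 at 0.01 µM and 72 h against 6.93 to 6.94. Fdft1 read 9.26 in Rs632 at 1 µM and 72 h against 9.55 to 9.61. Sqle read 9.86 in Rs631 at 0.01 µM and 72 h against 10.29 to 10.33. Cyp51 read 10.76 in Rs627 at 10 µM and 2 h against 10.97 to 10.99. Insig1 read 11.31 in Rs632 at 0.1 µM and 2 h against 11.74 to 11.77.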

How the results depend on the processing

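Of 15 member changes that passed as reported, none turned its sign under the 17 alternatives, and 207 of the 255 values stayed past the threshold. Most of the 15 were of 1 gene: 8 were changes of Insig1 at single times, and its averaged rises at 0.1, 1 and 10 µM were also among them. Srebf2 at 10 µM averaged over times passed in 8 of the 17 alternatives, and Cyp51 at 10 µM and 72 h in 10. With the rat as a replicate block, members called went from 1 to 4 at 1 µM and 24 h, from 1 to 2, 1 to 4 and 2 to 4 at 0.1, 1 and 10 µM averaged over times, from 0 to 3 for 72 against 2 h at 0 µM, and from 0 to 1 for the difference of changes at 1 µM. For 1 µM at the other times and the 2 lowest concentrations averaged it changed no count by over 1.5 times. Elsewhere it took the count from 0 to 4 for the difference of changes at 10 µM, from 0 to 3 at 0.1 µM and 72 h, from 1 to 3 at 10 µM and 6 h, from 0 to 2 for 0.1 against 0.01 µM and for 6 against 2 h, and from 0 to 1 at 0.1 µM and 6 or 24 h, at 10 µM and 2 h and for 24 against 2 h. Without the 2 doubted arrays as well, the blocked counts were 4, 4, 4, 4, 4 and 1 in that order. An alternative chosen after seeing the data, the block without the arrays of low signal, gave 3, 4 and 5 members for 0.1 µM and 1 µM averaged and 72 against 2 h, 4 at 1 µM and 72 h, and 1 for the difference. Only the arrays compared gave 0 at 6, 12 and 24 h and 1 at 72 h (1 µM). Median centring, and leaving out the 2 doubted arrays without a block (also chosen after seeing the data), gave 0 at 12 h. Leaving out the arrays of low signal or at repeated positions gave 0 at 24 h and 1 at 10 µM averaged, as did no filter (1), the mean of all probe sets (1) and the 2 doubted arrays left out (1) for the latter. No filter gave 1 at 1 µM and 72 h, and the mean of all probe sets 2 at 1 µM averaged. Leaving out each rat gave 0 to 1 at 6 h, 0 to 1 at 12 h, 0 to 3 at 24 h, 0 to 2 at 72 h, 1 to 4, 1 to 3 and 1 to 5 at 0.1, 1 and 10 µM averaged, 0 to 1 for 72 against 2 h and 0 to 1 for the difference; the highest counts came without Rs628 for 24 and 72 h, the averages, the time comparison and the difference. Changes that did not pass as reported turned their sign in 7 values: Srebf2 at 1 µM and 24 h was 0.059 without the arrays of low signal or repeated positions, and Idi1 at 10 µM and 24 h 0.043 in each of these. Leaving out each rat gave from -0.33 to 0.13 for Idi1 at 10 µM and 24 h, from -0.77 to 0.28 for Idi1 at 10 µM and 12 h and from -0.17 to 0.029 for Cyp51 at 10 µM averaged, each highest without Rs631. The cause was not tested. No background was measured for any probe set, so how far signal limits the members is unknown; each lay above 5 in all arrays.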
